A study of Homo sapiens with 36 samples.

Results

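The 58 genes described here encode the machinery that pulls sister chromosomes apart at mitosis: the kinetochore, the spindle checkpoint, the chromosomal passenger complex, shugoshin and separase, spindle and cytokinesis factors, condensin with TOP2A, and cohesin. They were chosen by symbol from a list written for these complexes, and all 58 were found once among the 29872 genes of the table. They were followed in LNCaP, an established human prostate cancer line derived from a lymph node metastasis. Cells were given vehicle (whose labels also carry a dose of 2 µM), AU2-94 or atirmociclib, both aimed at CDK4 (each at 1 µM and 2 µM), or ribociclib, which inhibits CDK4 and CDK6, at 2 µM, for 24 h or 72 h. Each of the 12 groups held 3 libraries, labelled as replicates of 1 line, so the error describes variation between cultures of a single genotype. Wells for 72 h were seeded more thinly than wells for 24 h, so time and density cannot be told apart, and every effect below was taken against the vehicle of its own time point.

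Chromosome segregation runs in an order that the gene groups follow. CENP-A nucleosomes mark the centromere, the inner kinetochore sits on them, the outer kinetochore (the KMN network) grips microtubules, and the checkpoint holds separase back until every kinetochore is attached. Cohesin holds sister chromatids together from replication onward and works in interphase too, whereas most of the other transcripts are made mainly in the second part of the cell cycle. Inhibition of CDK4 or CDK6 keeps RB unphosphorylated and holds cells in G1, and many mitotic promoters are known to be silenced in G1 through the CHR (cell cycle genes homology region), a short element bound by the DREAM complex.

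The promoters of 5 members are shown, and the CHR is a well-known element of such genes. In the inner kinetochore, spindle checkpoint, passenger complex and condensin lists, the member with the largest mean change against vehicle was taken. From the cohesin list the member with the highest mean level was taken instead. The promoters shown are RefSeq windows of 300 bases on GRCh38.p14, written 5′ to 3′ on the strand of the gene. Windows run from 250 bases before the annotated start to 50 after it. They are CENPA (chr2:26785806-26786105, plus strand), BUB1B (chr15:40160819-40161118, plus strand), AURKB (chr17:8210176-8210475, minus strand), NCAPG (chr4:17810729-17811028, plus strand) and SMC1A (chrX:53422679-53422978, minus strand). Capitals mark matches on either strand to the CHR (TTTGAA or TTCGAA), to CCAAT (the box read by NF-Y) or to an E2F motif (TTTCCCGC, TTTGGCGC, TTTGCCGC or TTTCGCGC). None of these strings of letters contains another.
CENPA: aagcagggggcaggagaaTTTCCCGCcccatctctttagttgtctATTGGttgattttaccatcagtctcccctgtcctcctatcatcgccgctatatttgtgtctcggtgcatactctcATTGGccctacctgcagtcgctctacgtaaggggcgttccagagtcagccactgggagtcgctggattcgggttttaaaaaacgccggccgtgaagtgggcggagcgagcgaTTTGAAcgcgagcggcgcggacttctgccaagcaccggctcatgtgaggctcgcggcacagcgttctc
BUB1B: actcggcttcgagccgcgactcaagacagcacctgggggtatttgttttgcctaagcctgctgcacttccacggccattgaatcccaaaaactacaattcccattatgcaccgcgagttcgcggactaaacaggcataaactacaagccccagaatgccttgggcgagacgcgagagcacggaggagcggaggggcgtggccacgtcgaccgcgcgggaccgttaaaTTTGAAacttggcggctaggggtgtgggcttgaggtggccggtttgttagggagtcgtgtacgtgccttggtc
AURKB: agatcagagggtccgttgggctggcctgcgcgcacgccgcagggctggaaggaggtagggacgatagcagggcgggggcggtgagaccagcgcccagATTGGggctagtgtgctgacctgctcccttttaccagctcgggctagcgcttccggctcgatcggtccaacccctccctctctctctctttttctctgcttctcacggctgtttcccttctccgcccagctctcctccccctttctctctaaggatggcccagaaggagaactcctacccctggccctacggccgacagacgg
NCAPG: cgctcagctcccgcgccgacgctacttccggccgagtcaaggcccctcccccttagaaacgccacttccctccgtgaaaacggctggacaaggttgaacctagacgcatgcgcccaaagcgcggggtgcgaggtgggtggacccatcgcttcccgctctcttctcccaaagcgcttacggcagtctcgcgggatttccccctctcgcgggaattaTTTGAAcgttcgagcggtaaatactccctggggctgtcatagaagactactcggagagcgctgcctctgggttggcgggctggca
SMC1A: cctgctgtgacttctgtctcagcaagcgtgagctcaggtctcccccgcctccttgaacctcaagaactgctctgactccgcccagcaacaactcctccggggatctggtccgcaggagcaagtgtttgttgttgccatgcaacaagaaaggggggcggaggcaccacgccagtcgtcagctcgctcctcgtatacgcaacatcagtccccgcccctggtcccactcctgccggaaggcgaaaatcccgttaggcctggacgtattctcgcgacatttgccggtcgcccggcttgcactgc

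CENPA held 1 CHR, 2 CCAAT boxes and 1 E2F motif, BUB1B and NCAPG held 1 CHR each, AURKB held 1 CCAAT box, and these letters were not found in the SMC1A window. The AURKB and CENPA windows lie wholly inside the GENCODE positions of these genes (chr17:8204733-8210600 and chr2:26764289-26801067). Bases before the outermost GENCODE start of these 2 genes were therefore not searched, and the absence of a CHR holds for the AURKB window only. A RefSeq window was matched by symbol for 48 of the 58 members, and the first listed start was used where there were several. CENPH, CENPM, MIS18A, KNL1, BUB3, TTK, BIRC5, AURKA, TPX2 and RAD21 were the 10 not matched. The CHR letters stood in 32 of the 48 windows (66.7%), against 16.6% of all 27305 RefSeq promoter windows and 11.2% of the 11872 windows matched to genes tested. CCAAT stood in 62.5% of member windows against 35.7% of all windows and 36.9% of those of genes tested, and an E2F motif in 10.4% against 3.3% and 5.3%. By group, the CHR was present in 5 of 5 windows of spindle assembly and cytokinesis genes and in 6 of 7 of condensin and TOP2A, but in 1 of 4 of cohesin. In cohesin the CHR stood in the SMC3 window, while STAG1 held CCAAT and E2F letters and STAG2 held CCAAT. Among members at least 2-fold lower in all 5 treatments at 24 h, 23 of 29 windows held it (79.3%), and among the other members 9 of 19 did (47.4%). A match of these letters is a description of the window, and binding was not measured here. A relation between these letters and the depth of the fall was not tested.

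The plot of motif distances shows that the CHR letters gathered around the start (median -15.5 bases) and the CCAAT letters ahead of it. Positions in the windows of other genes were not computed, so these positions are not shown to be particular to the members. The E2F matches were too few (5) to describe a position.

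Normalised counts summed to between 20675156 and 22692555 per library, with 19708 to 21405 genes above 0. Libraries of a group correlated with each other at r = 0.98 to 0.986 on the log2 scale, which is not a test for outlying libraries. The prostate markers KLK3 (19802 to 55194), FOLH1 (17193 to 26841), HOXB13 (7109 to 9668), TMPRSS2 (4205 to 20755) and KLK2 (2239 to 6652) were high in every library as normalised counts. Of the 8 markers of other cells, KRT5, TP63, CD3E, PTPRC, PECAM1 and COL1A2 had a median of 0, and COL1A1 and KRT14 made up most of the rest. KRT14 moved with treatment: it read 4.35 to 21.3 in vehicle and 23.2 to 60 in treated libraries at 24 h, and 4.73 to 25.2 and 39.2 to 88.6 at 72 h, while the other basal markers KRT5 and TP63 stayed at or near 0 (at most 1.01 and 4.04). COL1A1 read 389 to 512 in vehicle at 24 h and 194 to 405 in treated libraries, and 485 to 642 against 496 to 644 at 72 h. The summed level of the 8 markers was 393 to 535 in vehicle and 229 to 447 in treated libraries at 24 h, and 511 to 647 and 568 to 734 at 72 h. Their part in the results was not tested. The 58 genes together took 0.466% to 0.483% of the summed level in vehicle at 24 h and 0.469% to 0.483% at 72 h. At 24 h this share was 0.237% to 0.243% (1 µM) and 0.195% to 0.208% (2 µM) with AU2-94, 0.165% to 0.173% (1 µM) and 0.16% to 0.166% (2 µM) with atirmociclib, and 0.2% to 0.202% with ribociclib. At 72 h this share was above its 24 h level with every agent and dose and still below vehicle. It was 0.3516% to 0.3545% (1 µM) and 0.3599% to 0.3758% (2 µM) with AU2-94, and 0.321% to 0.334% with ribociclib. With atirmociclib it was 0.2436% to 0.2637% (1 µM) and 0.2197% to 0.2248% (2 µM).

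All 58 members passed the filter on low values (10 or more normalised counts in 3 or more libraries). Differences are log2 fold changes of (normalised count + 1) from limma, and a member passed when its Benjamini-Hochberg adjusted p over all genes tested was at most 0.05. At 24 h, AU2-94 at 1 µM lowered 52 members and raised 2, against 13.5% and 14.3% of the 16137 genes tested. AU2-94 at 2 µM lowered 52 and raised 2 (all genes 14.9% and 16%). Atirmociclib lowered 54 and raised 2 at 1 µM (15.4% and 16.6%) and lowered 55 and raised 1 at 2 µM (16.2% and 18.6%). With ribociclib 52 were lower and 2 higher (15.2% and 16.8%). The median log2 difference of the members was -1.17, -1.44, -1.82, -1.87 and -1.53 in that order, while that of all genes was within 0.01 of 0. The median of all genes depends on the scaling: with each library scaled to the same total it ran from -0.0315 to -0.0733. The 5 contrasts of a time point share the same 3 vehicle libraries and are not independent of each other. In a culture measured in bulk, fewer cells in mitosis and less RNA of these genes per cell cannot be told apart.

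Counting only falls of at least 2-fold, 33 and 42 members passed with AU2-94 at 1 and 2 µM (2.4% and 2.94% of all genes), 44 and 44 with atirmociclib (4.22% and 4.82%) and 39 with ribociclib (3.66%). In 54 members every one of the 15 treated libraries lay below every vehicle library at 24 h, against 10.7% of all genes. The 4 exceptions were CENPC, CENPN, MAD1L1 and STAG2. With each library scaled to the same total, the share of lower genes among all genes called moved from 48.2% to 60.1% and from 46.5% to 62.1% with atirmociclib at 1 and 2 µM and from 47.6% to 59.7% with ribociclib, while lower members numbered 55, 55 and 53. Taken within each replicate number, which the labels call a batch, 54 to 57 of the 58 members at 24 h and 53 to 56 at 72 h lay below the vehicle library of that number in every treatment. No threshold was set in these comparisons of single libraries, and the share of all genes below vehicle was not computed for them.

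By 72 h the falls were smaller. AU2-94 lowered 50 members at 1 µM (17% of 16341 genes) and 47 at 2 µM (15.3%), atirmociclib 52 at 1 µM (19.8%) and 54 at 2 µM (19.6%), and ribociclib 51 (15.4%). Members raised numbered 1, 1, 2, 1 and 1 (all genes 15.4%, 14.2%, 20%, 20.9% and 15.5%). The median log2 difference of the members was -0.49 and -0.43 with AU2-94, -1.0 and -1.17 with atirmociclib and -0.57 with ribociclib. Falls of at least 2-fold numbered 0 at either dose of AU2-94 (0.869% and 0.838% of all genes), 29 and 35 with atirmociclib at 1 and 2 µM (2.67% and 3.67%), and 1 with ribociclib (1.54%), which was SKA3. Without the fold limit, limma called with AU2-94 50 and 47 members lower at these doses, and 51 and 50 were lower at an unadjusted p under 0.05. All treated libraries lay below all vehicle libraries in 49 members (11.3% of all genes), and CENPK, MIS18A, NSL1, MAD2L1 and TTK joined the 4 exceptions of 24 h. With equal totals the share of lower genes among all called moved from 48.5% to 60.7% for atirmociclib at 2 µM, with 54 members lower. Across both times 46 members were lower in all 10 comparisons, against 3.91% of the 15849 genes tested at both times. Vehicle itself changed little, with 1 member lower at 72 h than at 24 h (CENPN, 3.64% of 16850 genes lower) and 0 higher (3.85% of all genes, limma; 4 members at an unadjusted p under 0.05).

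**Figure D1:**
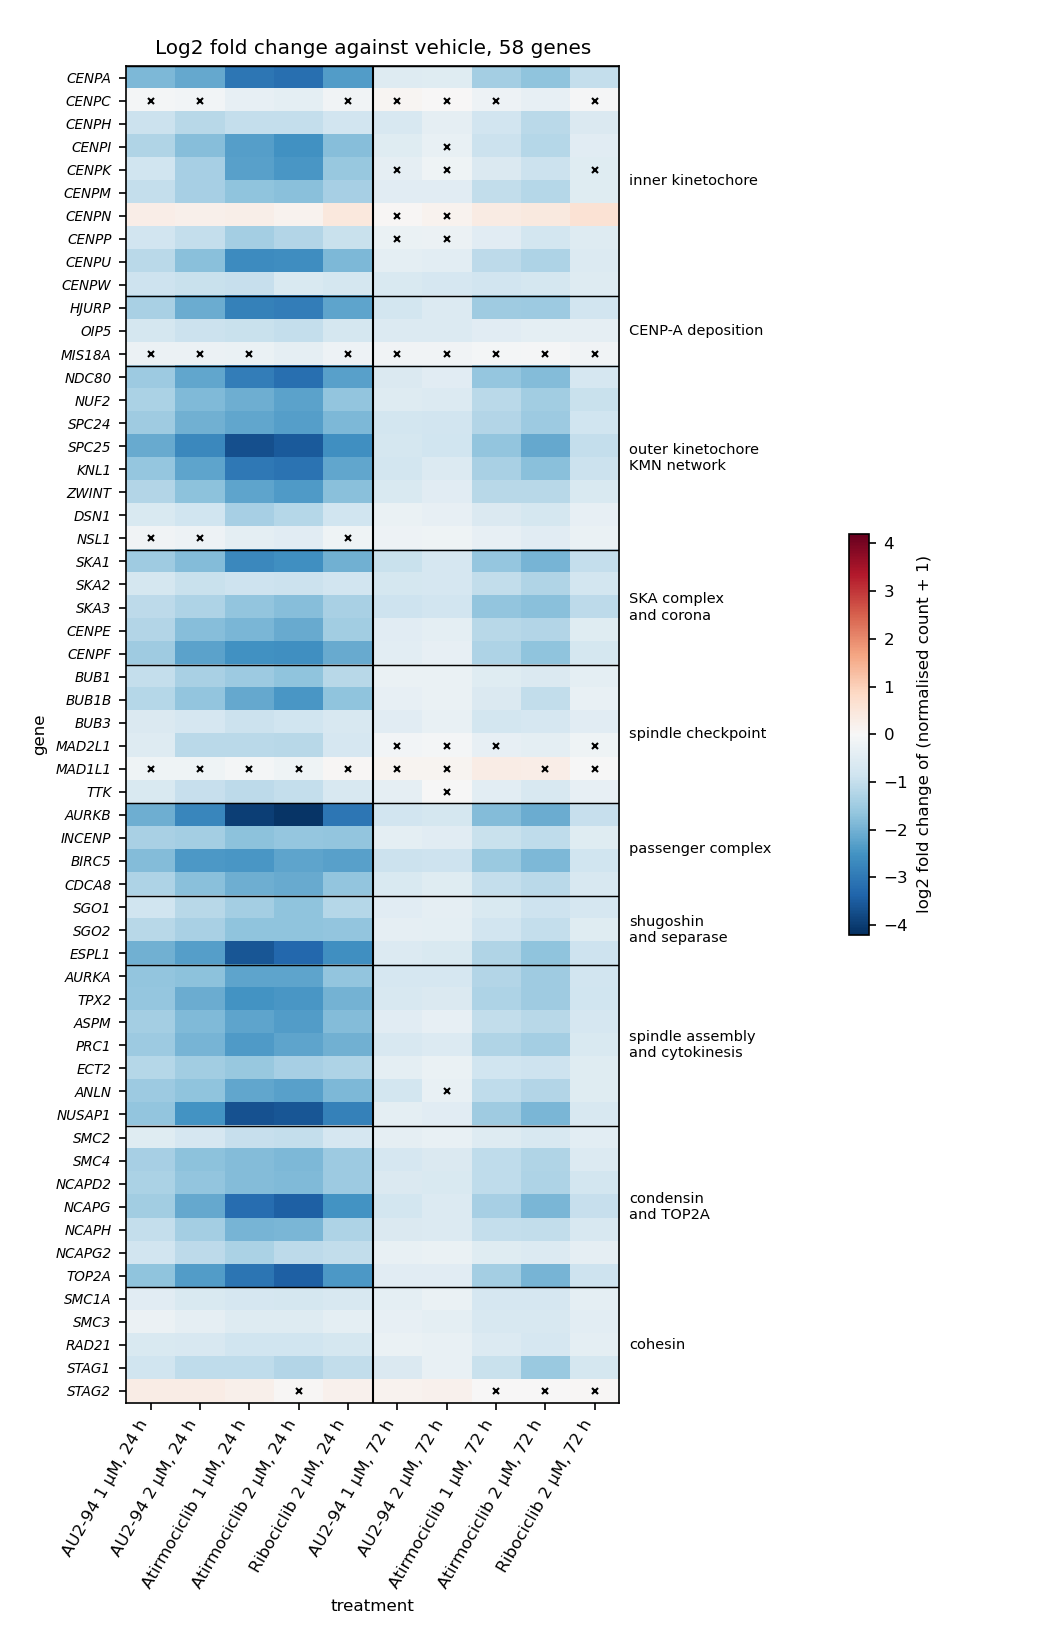
Log2 fold change against vehicle of the 58 genes (rows, grouped by complex) in the 5 treatments at 24 h (left) and 72 h (right), blue for lower and red for higher, with a cross where the adjusted p was above 0.05. The deepest blue is AURKB with atirmociclib at 24 h (-3.95 and -4.11), and the rows that stay pale are CENPC, CENPN, MIS18A, NSL1, MAD1L1 and STAG2.

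The heatmap groups the genes by complex, and the order of the complexes is given here for a single comparison. Ordered from the deepest fall, the median log2 difference with atirmociclib at 2 µM at 24 h was -2.34 for the outer kinetochore KMN network, -2.28 for spindle assembly and cytokinesis, -2.17 for the passenger complex, -2.11 for the SKA complex and corona, -1.89 for condensin and TOP2A. It was -1.70 for shugoshin and separase, -1.48 for the inner kinetochore, -1.08 for the spindle checkpoint, -1.01 for CENP-A deposition and -0.74 for cohesin. The value for CENP-A deposition, a list of 3 genes, is that of OIP5, whose exon overlaps are given below. Differences between groups were not tested.

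At the centromere, CENPA, the histone H3 variant that marks it (ENSG00000115163, chr2:26764289-26801067 on the plus strand on GRCh38), was among the genes that fell furthest. Its normalised count at 24 h was 308, 269 and 258 in vehicle. With AU2-94, CENPA read 75.3, 65.4 and 83.7 (1 µM) and 66.3, 59.4 and 59.6 (2 µM), with atirmociclib 41.5, 47.8 and 17.5 (1 µM) and 36.5, 21.6 and 35.4 (2 µM), and with ribociclib 61.7, 57.4 and 43. Every treated library lay far below the lowest vehicle library, and the log2 difference ran from -1.89 to -3.15 (SE 0.29). At 72 h the difference was -0.53 and -0.50 with AU2-94, -1.43 and -1.69 with atirmociclib and -0.99 with ribociclib (SE 0.12). HJURP, the chaperone that loads CENP-A, differed by -1.36 to -2.91 at 24 h and by -0.57 to -1.52 at 72 h. MIS18A, which licenses the same loading step, passed only with atirmociclib at 2 µM at 24 h (-0.39, SE 0.11, adjusted p = 0.00822) and in no treatment at 72 h. OIP5, the third member of that list, was lower in all 10 comparisons, but 63.2% of its exonic bases overlap the antisense OIP5-AS1 and 29.3% overlap NUSAP1, and the strand setting of the counting is not given in the sources used here.

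Of the 10 inner kinetochore genes, 8 were lower with either dose of AU2-94 at 24 h, 9 with either dose of atirmociclib and 8 with ribociclib. CENPK, a subunit of the constitutive network, differed by -0.83 to -2.43 at 24 h, and at 72 h it passed only with atirmociclib (-0.62 and -0.90, SE 0.19). CENPC, which links CENP-A nucleosomes to the outer kinetochore, hardly moved: it passed with atirmociclib at 24 h (-0.33 and -0.41, SE 0.10) and at 2 µM at 72 h (-0.35), and in no other treatment. The remaining members CENPH, CENPI, CENPM, CENPP, CENPU and CENPW, which belong to the constitutive network around CENP-A, spanned log2 differences of -0.64 to -2.64 at 24 h and -0.26 to -1.30 at 72 h, when CENPI passed in 4 and CENPP in 3 of the 5 treatments. IPPK (mean normalised count 584.5) overlaps 39.9% of the exonic bases of CENPP on the other strand.

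CENPN, which reads the CENP-A nucleosome, went the other way (ENSG00000166451, chr16:81006552-81033114 on the plus strand). Its normalised count at 24 h was 3498, 3196 and 3160.0 in vehicle. With AU2-94, CENPN read 4065, 3928 and 3862 (1 µM) and 3413, 4084 and 3914 (2 µM), with atirmociclib 3851, 3964 and 3885 (1 µM) and 3746, 3555 and 3659 (2 µM), and with ribociclib 4485, 4408 and 4631. Only 1 treated library, of AU2-94 at 2 µM, fell within the vehicle range, and the log2 difference was 0.27 and 0.21 with AU2-94, 0.25 and 0.15 with atirmociclib and 0.46 with ribociclib (SE 0.06, adjusted p = 4.95e-06 for ribociclib). The smallest of these, atirmociclib at 2 µM (adjusted p = 0.0405), did not pass with the replicate block (0.0576), with quantile normalisation (0.111) or with equal totals (0.289), nor without its replicate 1 or 3 or vehicle replicate 2 or 3, each of which left 0 members higher. With AU2-94 at 2 µM, 1 member instead of 2 was higher without its replicate 2. By 72 h CENPN read 2781, 2847 and 2483 in vehicle. With AU2-94, CENPN read 2726, 2772 and 2813 (1 µM) and 3049.8, 2837 and 3063 (2 µM), with atirmociclib 3229, 3507 and 3638 (1 µM) and 3691, 3432 and 3549 (2 µM), and with ribociclib 4189, 4117 and 4043. Atirmociclib and ribociclib libraries were all above vehicle (0.36, 0.40 and 0.61 on the log2 scale), whereas AU2-94 did not pass (0.04 and 0.14, adjusted p = 0.647 and 0.0606), although the dose of 2 µM passed with quantile normalisation (0.0137) and with equal totals (0.0237). Ribociclib exceeded AU2-94 at 2 µM by 0.47 at 72 h (95% CI 0.35 to 0.58, adjusted p = 0.000178). The gene shares 12.6% of its exonic bases with a second gene on its strand (ENSG00000261061, mean normalised count 204), and the part of that overlap in the rise was not tested.

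In the outer kinetochore, 7 of 8 genes were lower with AU2-94 and ribociclib at 24 h and all 8 with atirmociclib, and all 8 were lower in every treatment at 72 h. SPC25, a subunit of the NDC80 complex that binds microtubules (ENSG00000152253, chr2:168834132-168913371 on the minus strand), fell furthest. Its normalised count at 24 h was 323, 337 and 311 in vehicle. With AU2-94, SPC25 read 76.6, 67.2 and 77.4 (1 µM) and 53.4, 37.5 and 59.4 (2 µM), with atirmociclib 38.2, 18 and 19.9 (1 µM) and 27, 24.6 and 30.1 (2 µM), and with ribociclib 46.9, 52.3 and 63.6. The highest treated library read 77.4 and the lowest vehicle library 311, and the log2 difference ran from -2.12 to -3.70 (SE 0.24). By 72 h SPC25 read 358, 404 and 325 in vehicle. With AU2-94, SPC25 read 197, 222 and 231 (1 µM) and 204, 199 and 199 (2 µM), with atirmociclib 124, 122 and 99 (1 µM) and 77.6, 66.6 and 102 (2 µM), and with ribociclib 191, 169.9 and 179.8. The ranges were still apart from vehicle, with differences of -0.73 to -2.14 (SE 0.14). NDC80, the subunit that names the complex, differed by -1.53 to -3.15 at 24 h and -0.49 to -1.82 at 72 h. NSL1 of the MIS12 complex was the exception: it passed only with atirmociclib at 24 h (-0.42 and -0.47) and by small steps in all treatments at 72 h (-0.19 to -0.49, SE 0.07). The others, NUF2, SPC24, KNL1, ZWINT and DSN1, spanned -0.64 to -3.11 at 24 h and -0.28 to -1.75 at 72 h.

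SKA1, SKA2 and SKA3 form the complex that helps kinetochores hold on to shrinking microtubules, and CENPE and CENPF belong to the outer corona. All 5 were lower in all 10 comparisons. SKA1 differed by -1.50 to -2.71 at 24 h and -0.70 to -1.94 at 72 h. CENPF differed by -1.49 to -2.59 and then -0.36 to -1.69, and SKA3 and CENPE by -1.10 to -2.11 and then -0.39 to -1.75. SKA2 (ENSG00000182628, chr17:59109857-59155260 on the minus strand) moved less but did not come back. Its normalised count at 24 h was 1626, 1561 and 1545 in vehicle. With AU2-94, SKA2 read 952, 894 and 971 (1 µM) and 782, 765 and 922 (2 µM), with atirmociclib 859.7, 858 and 842 (1 µM) and 859, 762 and 915 (2 µM), and with ribociclib 937, 901 and 890.3. After 72 h the SKA2 counts were 1696, 1662 and 1696 in vehicle. With AU2-94, SKA2 read 1004, 1031 and 1005 (1 µM) and 988, 949 and 1173 (2 µM), with atirmociclib 830.3, 789.5 and 847 (1 µM) and 652, 669.8 and 798 (2 µM), and with ribociclib 968, 1132 and 906. No treated library reached the vehicle range at either time, with log2 differences of -0.75 to -0.94 at 24 h and -0.71 to -1.26 at 72 h.

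The checkpoint was uneven. BUB1B, the BUBR1 protein of the mitotic checkpoint complex (ENSG00000156970, chr15:40161023-40221123 on the plus strand), gave normalised counts at 24 h of 2184, 1766 and 2329.5 in vehicle. With AU2-94, BUB1B read 882, 932 and 886 (1 µM) and 701, 729 and 547 (2 µM), with atirmociclib 429.9, 487 and 491 (1 µM) and 488, 287 and 384 (2 µM), and with ribociclib 637, 643 and 651. The highest treated library read 932 and the lowest vehicle library 1766, and the log2 difference ran from -1.21 to -2.46 (SE 0.15). At 72 h it had shrunk to -0.33 and -0.28 with AU2-94, -0.60 and -1.04 with atirmociclib and -0.32 with ribociclib (SE 0.08). BUB1, BUB3, MAD2L1 and the kinase TTK (MPS1) were also lower in all 5 treatments at 24 h, but at 72 h MAD2L1 passed only with atirmociclib at 2 µM and TTK did not pass with AU2-94 at 2 µM. These 4 spanned -0.55 to -1.68 at 24 h and -0.0 to -0.76 at 72 h. MAD1L1, which anchors MAD2 at unattached kinetochores, passed in no treatment at 24 h (log2 differences 0.06 to -0.19, SE 0.14). It was higher with atirmociclib at 1 µM at 72 h (0.30, adjusted p = 0.0364), a call that was lost without any 1 of the 3 treated libraries or without vehicle replicate 1 or 2 (each leaving 1 member higher instead of 2), and with equal totals (0.068). At 2 µM it read 0.26 (adjusted p = 0.0663) and passed with quantile normalisation (0.0381). MAD1L1 shares 43.2% of its exonic bases with a second gene on its strand that has no row in the table. The part of that overlap in its counts was not tested.

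AURKB, the kinase of the passenger complex that releases faulty attachments (ENSG00000178999, chr17:8204733-8210600 on the minus strand), showed the largest mean change of all members. Its normalised count at 24 h was 694, 778 and 711 in vehicle. With AU2-94, AURKB read 137, 209 and 184 (1 µM) and 108, 118 and 101 (2 µM), with atirmociclib 44.1, 50.1 and 44.2 (1 µM) and 42.7, 37.9 and 43.3 (2 µM), and with ribociclib 67.6, 125 and 79.3. Both atirmociclib groups lay under every other library. The log2 difference was -2.06 and -2.73 with AU2-94, -3.95 and -4.11 with atirmociclib and -3.04 with ribociclib (SE 0.19). After 72 h AURKB stood at 879, 743 and 882 in vehicle. With AU2-94, AURKB read 510.1, 439 and 490.1 (1 µM) and 548, 502 and 463 (2 µM), with atirmociclib 259, 212 and 236 (1 µM) and 191, 198 and 197 (2 µM), and with ribociclib 391, 429 and 444. The groups still did not overlap with vehicle, and the difference was -0.80, -0.72, -1.82, -2.09 and -0.98 in the same order (SE 0.10). Its partners BIRC5 (survivin), CDCA8 (borealin) and the scaffold INCENP were lower in all 10 comparisons, INCENP by -1.37 to -1.72 at 24 h and -0.42 to -1.05 at 72 h. BIRC5 and CDCA8 spanned -1.29 to -2.44 and then -0.50 to -1.89.

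ESPL1 is separase, the protease that cuts cohesin at anaphase, and SGO1 and SGO2 are the shugoshins that shield centromeric cohesin until then. All 3 were lower in all 10 comparisons, ESPL1 by -2.0 to -3.61 at 24 h (SE 0.25) and then -0.59 to -1.68 at 72 h, and SGO1 by -0.83 to -1.70 and -0.39 to -0.85. Among the 7 spindle and cytokinesis genes, all were at least 2-fold lower in every treatment at 24 h. NUSAP1, which bundles spindle microtubules, had a wide range (-1.67 to -3.67, SE 0.11) and ECT2, the RhoA exchange factor of cytokinesis, a narrow one (-1.19 to -1.58, SE 0.10). AURKA and TPX2, which build the spindle, ASPM, PRC1 and ANLN completed the list, spanning -1.43 to -2.51 at 24 h and -0.31 to -1.48 at 72 h, when ANLN did not pass with AU2-94 at 2 µM. PRC1 and NUSAP1 share 57.6% and 81.4% of their exonic bases with read-through loci that have no row in the table.

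Condensin compacts chromosomes and TOP2A, topoisomerase II alpha, untangles them. All 7 genes of this list were lower in all 10 comparisons. TOP2A (ENSG00000131747, chr17:40388525-40417896 on the minus strand) gave normalised counts at 24 h of 3577, 3523 and 3512 in vehicle. With AU2-94, TOP2A read 1076, 1052 and 1201 (1 µM) and 687, 665 and 729.7 (2 µM), with atirmociclib 412, 524 and 339 (1 µM) and 350.5, 392 and 249 (2 µM), and with ribociclib 635, 722 and 619. The lowest vehicle library read 3512 and the highest treated library 1201. After 72 h TOP2A stood at 3293, 3710.2 and 3639 in vehicle. With AU2-94, TOP2A read 2598, 2601 and 2525 (1 µM) and 2567, 2598 and 2456 (2 µM), with atirmociclib 1208, 1373 and 1355 (1 µM) and 795, 941 and 1038 (2 µM), and with ribociclib 2015, 1801 and 1943. AU2-94 libraries were nearest to vehicle, ribociclib next and atirmociclib furthest, without overlap between the 3 agents, with log2 differences of -0.46, -0.48, -1.44, -1.95 and -0.89 in the order AU2-94, atirmociclib, ribociclib (SE 0.08). NCAPG, a condensin I subunit, differed by -1.47 to -3.41 at 24 h and -0.58 to -1.91 at 72 h, although 33.7% of its exonic bases overlap LCORL on the other strand. SMC2, the core ATPase shared by condensin I and II, moved least (-0.51 to -1.01 at 24 h, -0.30 to -0.67 at 72 h, SE 0.06 and 0.06). The condensin members SMC4, NCAPD2, NCAPH and NCAPG2 spanned -0.81 to -1.97 at 24 h and -0.29 to -1.30 at 72 h.

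Cohesin fell little, apart from 1 of its alternative subunits. SMC1A, SMC3 and RAD21, which form the ring, were lower in all 10 comparisons, SMC1A by -0.49 to -0.74 at 24 h and -0.28 to -0.71 at 72 h. STAG1 and STAG2 are paralogues of which each ring carries one. STAG1 (ENSG00000118007, chr3:136336236-136752403 on the minus strand) gave normalised counts at 24 h of 871, 680.5 and 702 in vehicle. With AU2-94, STAG1 read 398, 424 and 446 (1 µM) and 369.7, 366 and 344 (2 µM), with atirmociclib 299, 373 and 411 (1 µM) and 303, 315 and 326 (2 µM), and with ribociclib 438, 308 and 347. The lowest vehicle library read 680.5 and the highest treated library 446, with log2 differences of -0.82 to -1.24 (SE 0.13). By 72 h STAG1 read 682, 737 and 633 in vehicle. With AU2-94, STAG1 read 465, 440.0 and 434 (1 µM) and 511, 617 and 512 (2 µM), with atirmociclib 339, 347 and 395 (1 µM) and 225, 204 and 277 (2 µM), and with ribociclib 418, 383 and 418. Here the lowest libraries were those of atirmociclib at 2 µM, with a difference of -1.54 against -0.33 for AU2-94 at 2 µM (SE 0.11). PCCB (mean normalised count 3199.7) overlaps 21.2% of STAG1's exonic bases on the other strand. The part of that overlap in the STAG1 counts was not tested.

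STAG2 (ENSG00000101972, chrX:123960212-124422664 on the plus strand) moved the other way. Its normalised count at 24 h was 3148, 3520.2 and 3296 in vehicle. With AU2-94, STAG2 read 4024, 4014 and 4216 (1 µM) and 4245, 4123 and 4059 (2 µM), with atirmociclib 3604, 4054 and 3816 (1 µM) and 3477, 3288 and 3532 (2 µM), and with ribociclib 3749, 3763 and 3880.5. AU2-94, ribociclib and atirmociclib at 1 µM lay above all vehicle libraries, and atirmociclib at 2 µM overlapped with vehicle. The log2 difference was 0.30 and 0.32 with AU2-94, 0.20 with atirmociclib at 1 µM and 0.19 with ribociclib (SE 0.05), all of which passed. With atirmociclib at 2 µM it was 0.05 (adjusted p = 0.493), and its sign turned with equal totals (-0.028). At 72 h it passed with AU2-94 alone (0.15 and 0.19), at 1 µM in 1 of 6 fits that left out a library (without vehicle replicate 2) and at 2 µM not without vehicle replicate 1 or 3, and the others lay between 0.0 and 0.05, with the sign turned for both doses of atirmociclib with equal totals. STAG1 stood at 19.3% to 27.7% of the STAG2 level in vehicle at 24 h and at 8.2% to 11.7% in the treated libraries, and at 72 h at 20.3% to 22.8% in vehicle against 6.58% to 16.2%. These shares are not scaled for gene length.

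**Figure D2:**
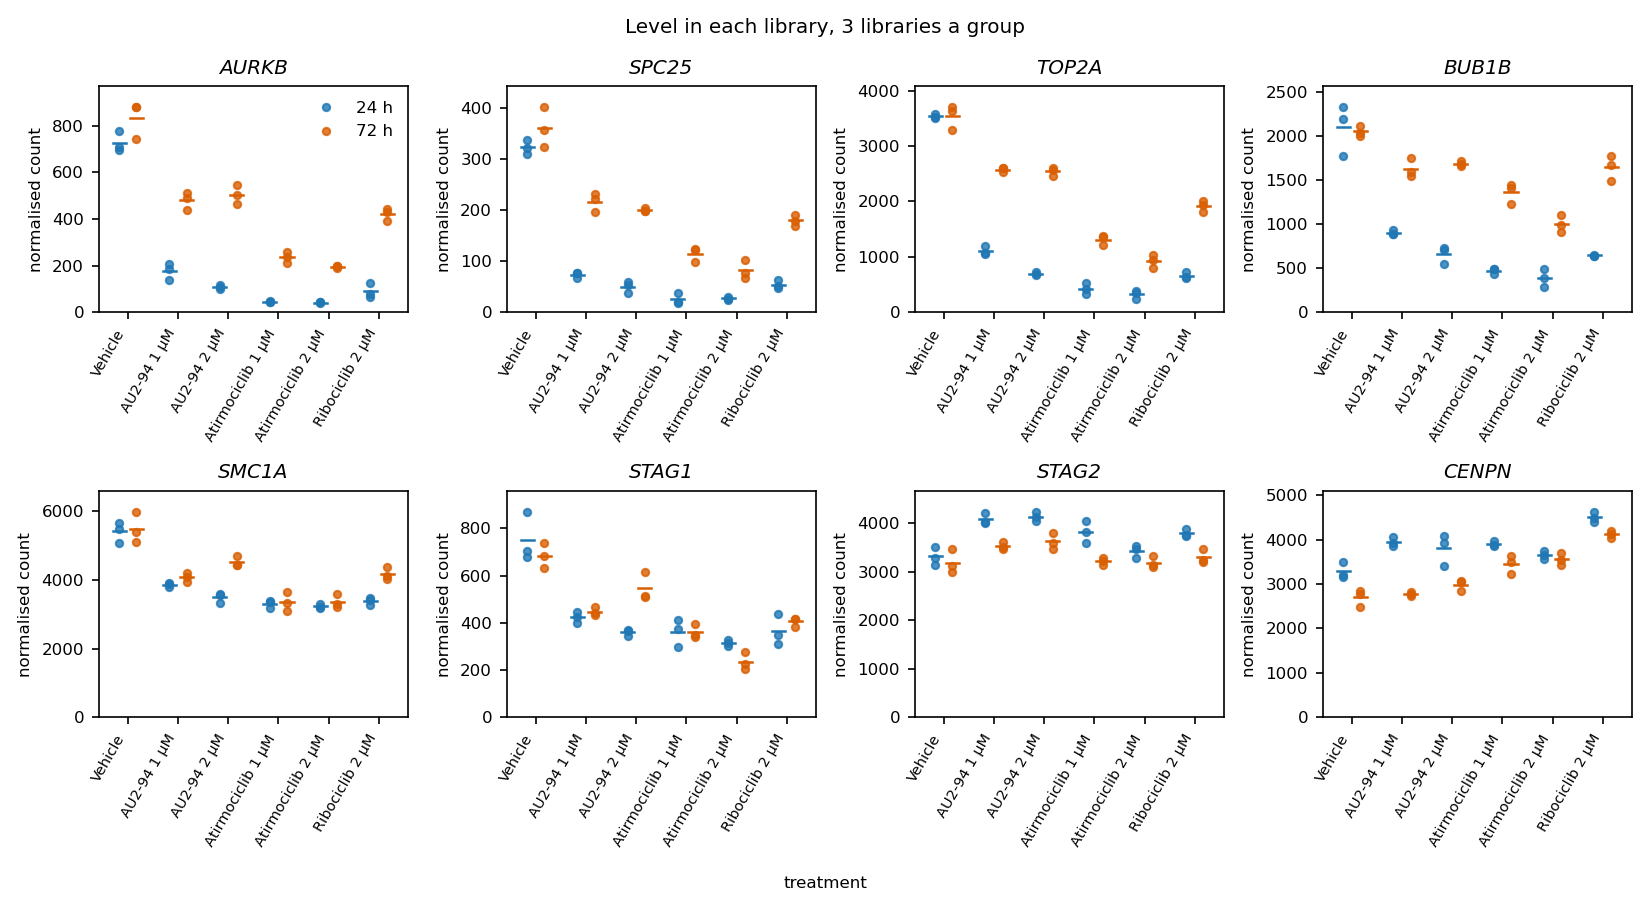
Normalised count (y axis, from 0) of 8 genes in each library at 24 h (blue) and 72 h (orange) by treatment (x axis); points are libraries, 3 a group, and bars are group means. AURKB, SPC25, TOP2A and BUB1B drop in every treatment at 24 h and lie higher at 72 h, STAG1 stays below vehicle, and STAG2 and CENPN lie at or above vehicle.

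The plot of library levels also shows how tight the groups were. For SMC1A at 72 h the highest treated library read 4692 and the lowest vehicle library 5094, against 3907 and 5088 at 24 h.

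The agents were compared at equal dose. At 1 µM atirmociclib gave lower levels than AU2-94 in 44 members at 24 h (3.16% of all genes) and 37 at 72 h (3.7%), with 1 higher at 72 h (4.53%). At 2 µM the counts were 23 at 24 h (4.31%) and 52 at 72 h (8.73%), again with 1 higher at 72 h (11.1%). The single higher member was CENPN at both doses, and at 2 µM that call was lost with quantile normalisation and with equal totals. The median log2 difference over members at 2 µM was -0.34 at 24 h and -0.70 at 72 h. At 24 h AURKB (-1.38, 95% CI -1.78 to -0.98), NCAPG (-1.26), NUSAP1 (-1.10), TOP2A (-1.09) and CENPK (-1.03) differed most, and at 72 h TOP2A (-1.47, 95% CI -1.63 to -1.30), NUSAP1 (-1.46), AURKB (-1.36), CENPF (-1.33) and NDC80 (-1.32).

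**Figure D3:**
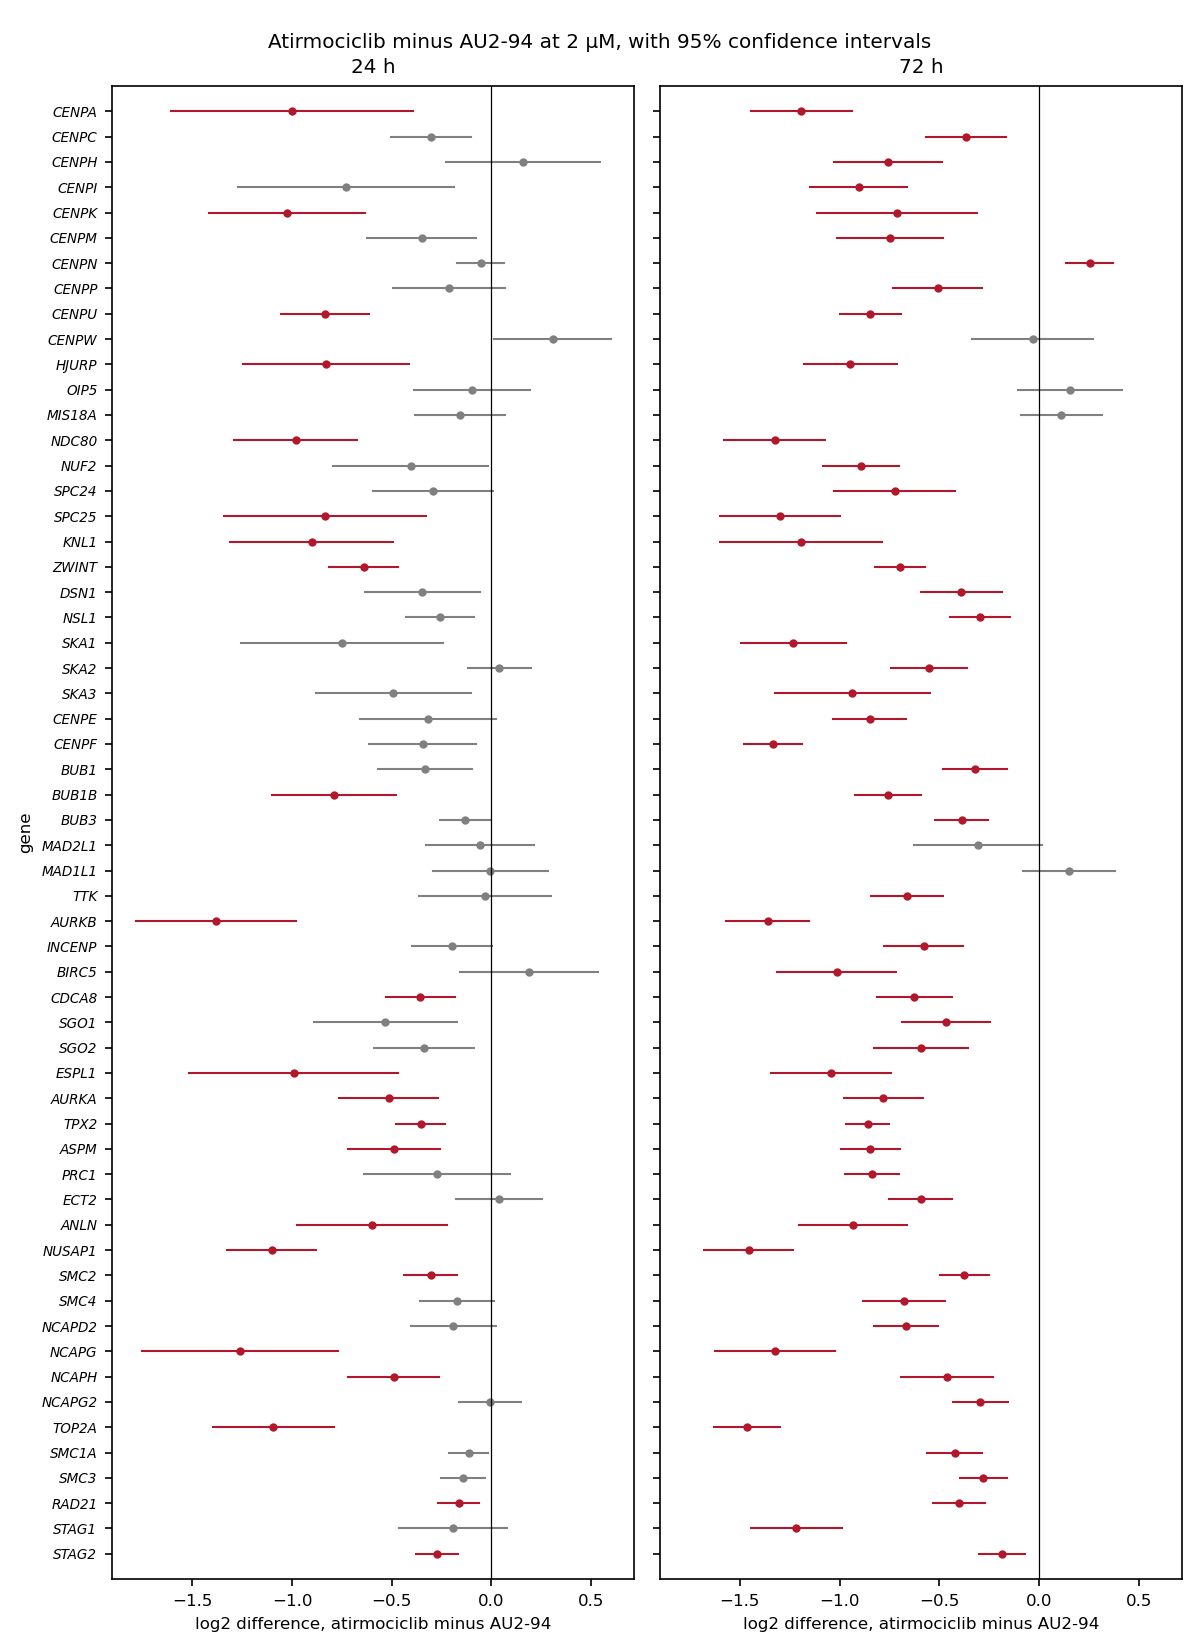
Log2 difference of atirmociclib minus AU2-94 at 2 µM (x axis) for the 58 genes (y axis) at 24 h (left) and 72 h (right), with 95% confidence intervals from the fit, red where the adjusted p was at most 0.05. At 24 h 23 genes pass and at 72 h 53, and of those all but CENPN lie on the side of atirmociclib being lower.

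The plot of atirmociclib minus AU2-94 shows intervals that at 72 h clear 0 for nearly every gene, and that for CENPW, OIP5, MIS18A, MAD2L1 and MAD1L1 did not. Against ribociclib at 2 µM, atirmociclib was lower in 24 members at 24 h (2.81% of all genes) and 45 at 72 h (4.35%). TOP2A differed by -1.02 (95% CI -1.32 to -0.71) and -1.06 (-1.23 to -0.89) at these times. Ribociclib and AU2-94 at 2 µM differed in 0 members at 24 h (0.0186% of all genes lower), with 4 lower and 2 higher at an unadjusted p under 0.05 in limma. The log2 differences of the members ran from -0.35 to 0.41, with a median half-width of the 95% intervals of 0.27 and outermost interval ends of -0.84 and 0.74, and these intervals do not show that the agents act alike. At 72 h ribociclib was lower in 8 (1.38%) and higher in 1, CENPN (1.96%). The 8 were CENPA, NUF2, CENPF, TTK, TPX2, ASPM, TOP2A and STAG1, named after their values were seen, with TOP2A at -0.41 (95% CI -0.57 to -0.24). That count of 8 dropped to 3 without AU2-94 replicate 3, ribociclib replicate 2 or ribociclib replicate 3, to 4 without AU2-94 replicate 1 and to 5 without AU2-94 replicate 2.

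Between 1 and 2 µM few members passed, although at an unadjusted p under 0.05 (limma) 33 were lower and 0 higher at the higher dose of AU2-94 at 24 h, and 25 lower and 0 higher at that of atirmociclib at 72 h. Shares of all genes at an unadjusted p or by sign alone were not computed, so such counts stand without a baseline. The log2 difference was negative in 56 of the 58 members with AU2-94 at 24 h and in 51 with atirmociclib at 72 h. It was negative in 16 with AU2-94 at 72 h and in 38 with atirmociclib at 24 h. The share of the summed level did not overlap between the doses of AU2-94 at either time. At 24 h this share was lower at 2 µM, but at 72 h it was higher (0.3599% to 0.3758%, against 0.3516% to 0.3545% at 1 µM). After adjustment AU2-94 gave lower levels at 2 µM in 7 at 24 h (0.384% of all genes), which were CENPU, ZWINT, CENPF, CDCA8, TPX2, NUSAP1 and TOP2A, named after their values were seen. NUSAP1 differed by -0.83 (95% CI -1.06 to -0.61). The count was 3 without AU2-94 1 µM replicate 3 and 4 without AU2-94 1 µM replicate 1 or AU2-94 2 µM replicate 1 or 2. At 72 h 0 members differed (0% of all genes lower), and in limma 0 were lower and 8 higher at an unadjusted p under 0.05, with 95% intervals reaching from -0.41 to 0.75. For atirmociclib 0 members were lower at 24 h (0.0062% of all genes; 3 lower and 2 higher at an unadjusted p under 0.05 in limma) and 5 at 72 h (0.936%): CENPF, BUB1B, NUSAP1, TOP2A and STAG1, the last by -0.62 (95% CI -0.85 to -0.39).

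The return towards vehicle was tested as the effect at 72 h minus the effect at 24 h, so a positive value is a smaller fall. It was positive and passed in 32 members with AU2-94 at 1 µM (10.1% of all genes), 47 at 2 µM (9.26%), 43 and 40 with atirmociclib at 1 and 2 µM (11.3% and 11.7%), 40 with ribociclib (10.5%) and 45 with the 5 treatments pooled (14.9%). Pooled, AURKB moved by 1.89 (SE 0.17), NUSAP1 by 1.86 (0.12), ESPL1 by 1.75 (0.24), SPC25 by 1.65 (0.21) and TOP2A by 1.55 (0.13). By group, all 7 condensin and TOP2A genes, all 7 spindle genes and all 4 passenger genes passed when pooled, and 1 of 5 cohesin genes did. Among the members that did not pass when pooled, SKA2 changed by -0.04 (95% CI -0.23 to 0.14) and STAG1 by 0.21 (-0.06 to 0.49). The pooled value of STAG1 averaged unlike changes: it was 0.73 with AU2-94 at 2 µM (SE 0.17, adjusted p = 0.0027), the only treatment in which STAG1 passed, and -0.30 with atirmociclib at 2 µM (adjusted p = 0.232).

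**Figure D4:**
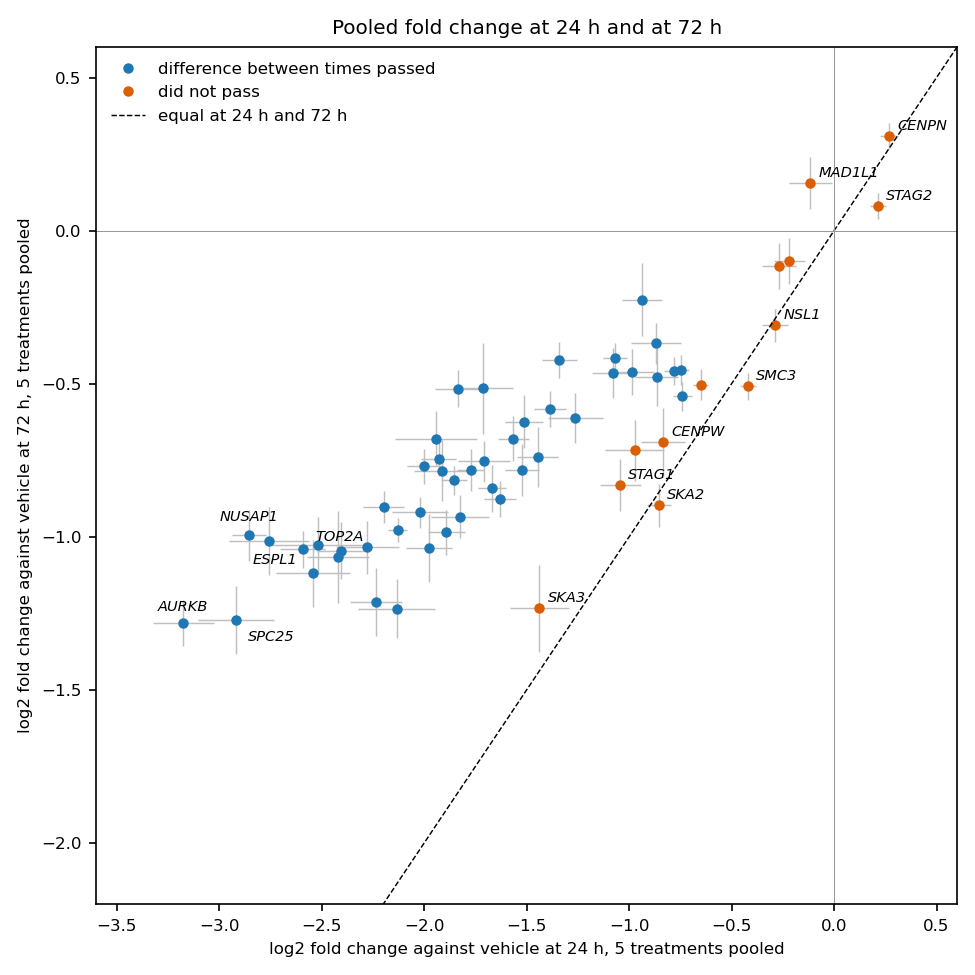
Log2 fold change against vehicle of the 5 treatments pooled at 24 h (x axis) and 72 h (y axis) for 58 genes, with standard errors as grey bars and the dashed line where both times are equal. The 45 genes in blue, whose difference between times passed, lie above the line, and SKA2, NSL1 and CENPN lie on or beside it.

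The plot of pooled effects places AURKB (-3.18 at 24 h, -1.28 at 72 h) and NUSAP1 (-2.86 and -1.0) furthest from the line. Both axes share their vehicle libraries with the test of the difference.

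Of 46 other genes of the same pathways, chosen as a list, 44 passed the filter (RAD21L1 and SMC1B did not). Of these, 24 fell at 24 h under AU2-94 at 1 µM (against 13.5% of all genes) and 31 under atirmociclib at 2 µM (16.2%), with median log2 differences of -0.35 and -0.64, and at 72 h 23 and 27 did (17% and 19.6% of all genes). CDCA5 (sororin), which stabilises cohesin after replication, was -1.18 and -2.49 in these 2 treatments at 24 h, whereas the SMC3 deacetylase HDAC8 was -0.18 and -0.11 and passed in neither. In the same treatments KNTC1 (ROD of the RZZ complex) was -1.49 and -2.13 and its partner ZWILCH -0.05 and -0.37. The condensin II subunits NCAPH2 (-0.83 and -1.22) and NCAPD3 (-0.63 and -0.74) both passed. Among spindle genes CKAP2L was -2.11 and -3.21 and CLASP2, which did not pass, -0.06 and -0.03, and among kinetochore genes CENPO was -1.0 and -1.67 and MIS12, which did not pass at 24 h, -0.06 and -0.16. The germline cohesin genes REC8 and STAG3 passed in 0 and 1 of the 10 comparisons by limma, the 1 being STAG3 with AU2-94 at 2 µM at 24 h (1.73, adjusted p = 0.0343).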

How the data were processed

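RNA sequencing libraries (Universal Plus Total RNA-Seq kit) came from LNCaP cells in 12 groups of 3, grouped by the sample labels. The authors ran the nf-core/rnaseq pipeline with STAR 2.6.1d on GRCh38, and DESeq2. The deposited values are a signal, normalised counts made by the authors and not whole numbers, so count models were not used. The annotation release, counter and strand setting are not given in the sources used here. Genes were named with GENCODE release 44, and positions are from it on GRCh38. The scale was log2(normalised count + 1), and tests used limma 3.58.1 (lmFit, eBayes with trend, R 4.3.3) for genes with at least 10 in at least 3 libraries, with Benjamini-Hochberg adjustment within each contrast. One fit held the 6 groups of each time point, and another all 12 for changes with time. Totals of 20675156 to 22692555 per library are normalised sums, so depth in reads is not known from them and low values are the least precise. SEs come from the spread between libraries within groups, pooled over all groups of a fit and moderated by eBayes. A gene therefore has the same SE in each single treatment against vehicle at a time point.

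The members, gene lists and tests were chosen with earlier results of these data known. Named genes were the largest and smallest mean change in each list, every member that rose in a comparison, the 5 largest differences of atirmociclib minus AU2-94 at 2 µM per time, the 5 largest changes with time and the largest and smallest of each list of other genes. The labels call the replicate number a batch. It paired libraries only in the count of members below the vehicle library of the same number and in the alternative fit with a replicate block. The main fits held no pairing or block. After subtracting group means, same-numbered libraries correlated across genes by 0.0018 on average at 24 h (45 pairs) and -0.0022 at 72 h, against -0.00088 and 0.0011 for different numbers. Exon overlaps came from GENCODE, and stretches of at least 100 bases at 98% identity in another gene were sought with BLAST 2.17.0 and found in 16 members. The fit was tested on simulated data with planted changes. Alternatives were the pseudocount, the filter, the scaling, the replicate block, the trend, the libraries fitted and leaving out each library.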

Additional observations from a re-analysis of the deposited data

Results flagged for a closer look

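The effect on these genes differed between the 2 time points by a test of the difference itself. The fall was smaller at 72 h than at 24 h in 32 members with AU2-94 at 1 µM, 47 at 2 µM, 43 and 40 with atirmociclib at 1 and 2 µM, 40 with ribociclib and 45 when pooled (limma). The largest pooled changes were 1.89 for AURKB, 1.86 for NUSAP1, 1.75 for ESPL1, 1.65 for SPC25 and 1.55 for TOP2A on the log2 scale. Against that direction, SKA2 fell further at 72 h with atirmociclib at 2 µM (change -0.36, adjusted p = 0.0296), and the rise of CENPN with AU2-94 at 1 µM was smaller at 72 h (change -0.23, adjusted p = 0.0355). Both calls depend on single libraries: leaving out certain ones left 0 such members. For SKA2 these were treated replicates 1 and 3 and vehicle replicates 2 and 3 at 24 h, and treated replicates 1 and 2 and vehicle replicates 1 and 3 at 72 h. For CENPN they were treated replicate 1 and vehicle replicates 2 and 3 at 24 h, and treated replicates 1 and 2 and vehicle replicates 1 and 2 at 72 h, and this call was also lost with quantile normalisation, with equal totals and without the trend. Seeding density differed between the times and cannot be told apart from them. Groups of 3 libraries were not tested for single outlying libraries.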

How the results depend on the processing

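Counts of lower members against vehicle and of members with a smaller fall at 72 h kept within 1.5 times their value under each alternative. With the replicate block, 46 to 55 members were lower across the 10 comparisons with vehicle, and 0 instead of 1 was higher with atirmociclib at 2 µM at 24 h. It also made 1 change with time lower for atirmociclib at 1 µM, where 0 was, and moved no other count of members by more than 1.5 times. With only the libraries of the groups compared in the fit, AU2-94 at 2 against 1 µM at 24 h gave 3 lower members, ribociclib minus AU2-94 at 72 h gave 2 and atirmociclib at 2 against 1 µM at 72 h gave 2. Without the trend, ribociclib minus AU2-94 at 72 h gave 5. Leaving out 1 library gave 3 to 6 for AU2-94 at 2 against 1 µM at 24 h and 3 to 7 for ribociclib minus AU2-94 at 72 h. Pooled over treatments at 24 h, CENPC lost its call without vehicle replicate 1 or 2 (adjusted p = 0.0834 and 0.176) and MIS18A without vehicle replicate 1 or 3 (0.0694 and 0.0573), both also with quantile normalisation. The cause of these shifts was not tested.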
